A study of Mus musculus with 6 samples.

Results

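The myosin light chains and myosin-binding proteins described here are 9 genes, *Myl1*, *Mylpf*, *Mybpc2*, *Myl3*, *Myl2*, *Mybpc1*, *Myl4*, *Mybph* and *Mylk2*, of 13705 genes measured in all. They were chosen by name, and each was read from the non-control probes that the array design assigns to a RefSeq transcript of the gene. RNA came from the tibialis anterior (TA) muscles, a hindlimb muscle made mostly of fast fibers, of 3 *mdx* and 3 N1ICD-*mdx* mice, all 9 months old and on a 129 × C57BL/6 background. *mdx* mice lack dystrophin, and both groups carry this mutation. N1ICD-*mdx* mice also express a constitutively active Notch1 intracellular domain from the *Rosa26* locus, switched on by a Cre under the muscle creatine kinase promoter (MCK-Cre), which works in muscle fibers and not in their satellite cells. Each of 3 two-color Agilent arrays held 1 *mdx* muscle in Cy3 (green) and 1 N1ICD-*mdx* muscle in Cy5 (red), so dye and genotype cannot be told apart in any ratio given here.

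Myosin II of a sarcomere is built from a pair of heavy chains, each of which binds 1 essential and 1 regulatory light chain around its lever arm. Fast fibers use *Myl1* (essential) and *Mylpf* (regulatory), slow fibers and the heart ventricle use *Myl3* and *Myl2*, and the embryonic and atrial essential chain *Myl4* returns in regenerating muscle. *Mylk2* encodes the calmodulin-dependent kinase of skeletal muscle that phosphorylates the regulatory chain and so raises force at a given calcium level. Myosin-binding protein C lies in stripes on the thick filament and tunes how heads reach actin. *Mybpc1* encodes its slow form, which many fast fibers also make, *Mybpc2* its fast form, and *Mybph* the shorter relative myosin-binding protein H.

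Every one of the 9 genes was detected above background in all 6 muscles, and no spot was saturated. Of 12 probes, *Myl1*, *Mylpf* and *Mybpc1* had 2 each, and the brightest stood for the gene. Values below are normalized log2 intensities (levels), which are set side by side for 1 probe across muscles and never between probes, or log2 ratios of N1ICD-*mdx* over *mdx* within an array. Ratios were tested against 0 by limma, with Benjamini-Hochberg adjustment over all genes. Since this is bulk RNA, fewer cells of a type and less RNA per cell cannot be told apart.

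Across the whole series, replicate 2 stood apart: the SD of its log2 ratios over genes was 0.536 against 0.244 and 0.238 in replicates 1 and 3, and its *mdx* muscle had the highest summed level of the macrophage markers. At an adjusted p under 0.05, limma called 0 genes, and the test named in the study's methods called 0 as well, while 890 genes (6.49%) had an unadjusted p under 0.05 in limma. The probe of *Notch1* was dim and its log2 ratio was -0.12 (standard error 0.08), and where it lies relative to the expressed domain was not known, so it is no check of the labels. The Notch target genes that were kept had mean log2 ratios of 0.11 (*Hes1*), 0.21 (*Hey1*), 0.44 (*Heyl*) and 0.28 (*Nrarp*). The defining fiber markers were strong in all 6 muscles. Of the cardiac markers *Nppa*, *Myl7*, *Tnni3* and *Mybpc3* were not kept. *Myl7* was above background on 0 of 3 arrays in both groups, and *Nppa* on 1 of 3 in *mdx* and 2 of 3 in N1ICD-*mdx*. The other listed cardiac marker, *Myh6*, was kept but dim, with log2 ratios of -0.02, 1.18 and 0.19.

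Among the 9 genes, *Mybpc1* was higher and *Mybph* lower in N1ICD-*mdx* than in *mdx* muscle, each past a 1.5-fold change and an unadjusted p of 0.05, and the other 7 genes did not reach those thresholds. Over all genes, 65 (0.474%) were called higher and 66 (0.482%) lower by this rule, and 131 (0.956%) in either direction. Neither gene passed the adjusted threshold, and both had an adjusted p of 0.703. The *Mybpc1* call was lost in 6 alternative settings, where its log2 ratio was 0.50 to 0.54, and the *Mybph* call in 2, where the muscles were not compared within arrays. The ratio had the same sign on all 3 arrays for 3 of the 9 genes, *Mybpc1* above 0 and *Mybph* and *Mylpf* below 0, against 34.1% of all genes (17.7% above 0 and 16.4% below 0). The levels of the groups did not overlap for 1 of the 9, *Mybpc1*, where N1ICD-*mdx* was the higher, against 13.8% of all genes (7.56% higher and 6.26% lower).

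**Figure D1:**
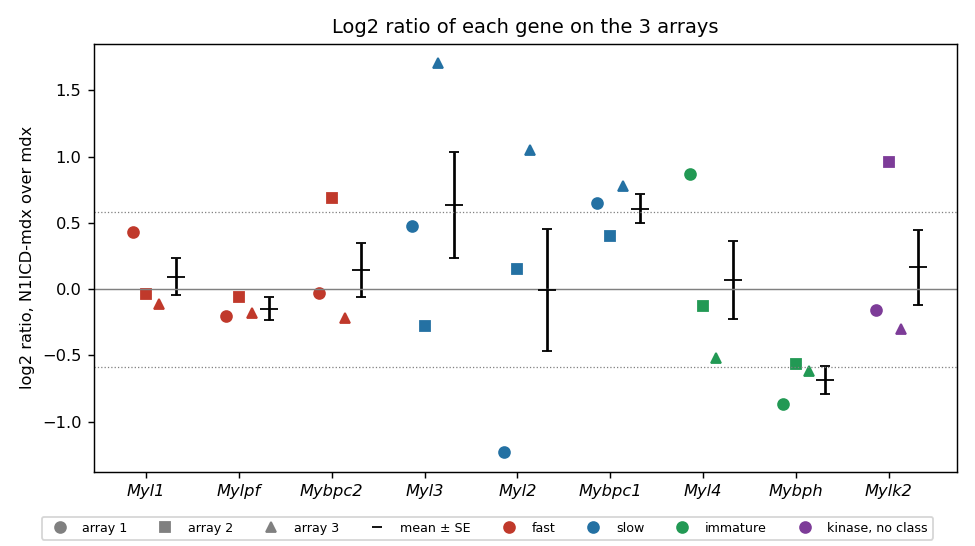
Log2 ratio of N1ICD-mdx over mdx muscle (y axis) for each of the 9 genes (x axis) on arrays 1, 2 and 3, with the mean and limma's standard error in black and dotted lines at a 1.5-fold change. The 3 points lie on one side of 0 for *Mylpf*, *Mybpc1* and *Mybph* alone, and *Myl2* and *Myl3* spread most, from -1.23 to 1.05 and from -0.28 to 1.70.

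The promoters of these 3 genes are shown because they are the members whose ratio kept its sign on every array. Each run spans 250 bases before to 50 bases after the transcription start in the RefSeq table of GRCm38.p6, 5′ to 3′ on the strand of the gene, with matches to the searched motifs in capitals.
Mybpc1, chr10:88605103-88605402, minus strand: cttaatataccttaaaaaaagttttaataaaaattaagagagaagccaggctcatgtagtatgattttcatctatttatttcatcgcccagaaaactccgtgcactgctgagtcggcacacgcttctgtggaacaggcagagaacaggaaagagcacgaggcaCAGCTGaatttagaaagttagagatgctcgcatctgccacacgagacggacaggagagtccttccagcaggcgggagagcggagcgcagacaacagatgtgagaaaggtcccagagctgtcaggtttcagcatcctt
Mybph, chr1:134193198-134193497, plus strand: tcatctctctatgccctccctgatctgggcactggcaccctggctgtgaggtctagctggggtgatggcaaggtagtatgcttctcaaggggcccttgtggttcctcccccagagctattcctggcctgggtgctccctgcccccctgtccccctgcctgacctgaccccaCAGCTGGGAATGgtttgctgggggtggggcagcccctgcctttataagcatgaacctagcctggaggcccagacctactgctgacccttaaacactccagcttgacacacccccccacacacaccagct
Mylpf, chr7:127211358-127211657, plus strand: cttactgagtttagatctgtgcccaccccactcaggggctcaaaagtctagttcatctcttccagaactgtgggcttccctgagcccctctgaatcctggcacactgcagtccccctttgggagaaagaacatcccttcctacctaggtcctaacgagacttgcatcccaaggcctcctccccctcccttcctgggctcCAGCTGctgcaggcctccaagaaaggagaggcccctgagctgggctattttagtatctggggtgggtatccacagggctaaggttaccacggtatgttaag
The motifs, searched on both strands, were the myogenic factor E-box CAGCTG, the MEF2 motif of CTA and TAG with any 4 bases between them, the motif GTGGGAA of RBPJ, the DNA-binding partner of the Notch intracellular domain, and the MCAT motif CATTCC of TEAD factors. All 3 promoters held CAGCTG, whose first base lay at -87 from the start in *Mybpc1*, at -79 in *Mybph* and at -51 in *Mylpf*. In *Mybph* the E-box ran directly into GGAATG, the reverse complement of CATTCC, which began at -73. Promoter sequences were at hand for 8 of the 9 genes, in 9 windows, since *Myl2* had 2. CAGCTG was found in 5 of the 8 genes (*Mybpc1*, *Mybph*, *Myl1*, *Myl2* and *Mylpf*) and in 16.3% of all 32851 promoter windows of this length. CATTCC was found in 4 of the 8 (*Mybpc2*, *Mybph*, *Myl1* and *Myl3*) and in 14.7% of all windows. Neither GTGGGAA, present in 6.38% of all windows, nor the MEF2 motif, present in 3.69%, was found in any of the 9. A match is a description of the letters and not of binding.

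The light chains and the C protein of fast fibers differed little between the groups. *Myl1*, the fast essential light chain, had levels of 15.77, 16.30 and 16.18 in *mdx* replicates 1, 2 and 3 and of 16.20, 16.26 and 16.07 in N1ICD-*mdx*. The *mdx* muscle of replicate 1 was low after normalization, though its raw median signal of 75159 was above that of *mdx* replicate 2 (69642). The other 5 muscles lay close together, so the log2 ratios were 0.43, -0.03 and -0.11. Their mean was 0.09 (standard error 0.14, unadjusted p = 0.539, adjusted p = 0.841). The second *Myl1* probe, for another transcript of the gene, gave 0.21, 0.21 and -0.26 with a mean of 0.05, so the probes disagreed in sign on array 2.

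*Mylpf*, the fast regulatory chain and the substrate of the *Mylk2* kinase, had levels of 10.76, 10.66 and 11.07 in *mdx* and of 10.56, 10.59 and 10.89 in N1ICD-*mdx* muscles. Replicate 3 was highest in both groups, and the groups overlapped. The log2 ratios of -0.20, -0.06 and -0.18 had a mean of -0.15 (standard error 0.09, unadjusted p = 0.154, adjusted p = 0.703). Its dim second probe, named from a predicted RefSeq transcript, gave -0.25, 0.08 and 0.02. The genes with the pattern most like *Mylpf* over the 6 muscles were *Vwf* (Pearson r = 0.984), *Cdk16* (0.982), *Mrpl11* (0.978) and *Kat6b* (0.975).

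*Mybpc2*, the fast C protein, had levels of 14.98, 14.60 and 15.44 in *mdx* and of 14.94, 15.28 and 15.22 in N1ICD-*mdx* muscles. The lowest muscle was *mdx* replicate 2, and its array gave a log2 ratio of 0.69 against -0.03 and -0.22 on the other arrays. The mean of 0.14 (standard error 0.21, unadjusted p = 0.519) became -0.13 without replicate 2. *Mylk2*, the light chain kinase, followed *Mybpc2* with r = 0.954 over the 6 muscles, as a description of points that share arrays. Its levels were 13.39, 12.62 and 13.72 in *mdx* and 13.23, 13.57 and 13.42 in N1ICD-*mdx* muscles, again lowest in *mdx* replicate 2. Its log2 ratios of -0.16, 0.96 and -0.30 had a mean of 0.17 (standard error 0.28, unadjusted p = 0.589), which became -0.23 without replicate 2.

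The *mdx* muscle of replicate 2 also held the lowest summed level of the 6 fiber markers, 17.92 on the log2 scale against 18.19 and 18.29 in the other *mdx* muscles and 18.48 to 18.75 in N1ICD-*mdx* muscles. Its summed level of the 9 measured of 10 macrophage markers was 15.31, against 13.68 to 14.43 in the other 5 muscles, and *Mki67*, a marker of proliferating cells, stood at 10.73 against 7.18 to 9.35. The part of these values in the ratios of *Mybpc2* and *Mylk2* was not tested.

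**Figure D2:**
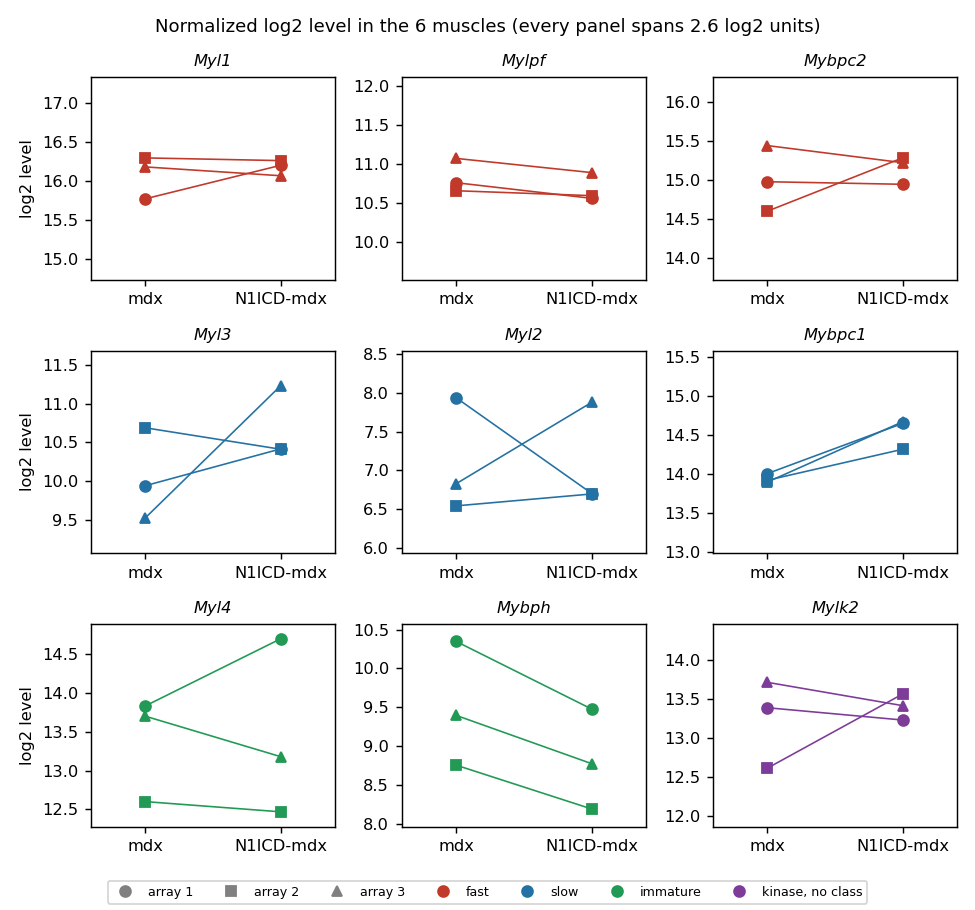
Normalized log2 level (y axis, every panel 2.6 log2 units high) of each gene in the mdx and N1ICD-mdx muscles, with a line joining the muscles that shared an array. The muscles of the groups are fully apart in the panel of *Mybpc1* (13.89 to 14.004 against 14.32 to 14.67) and in no other panel.

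The slow isoforms did not move together. *Mybpc1*, the slow C protein, had levels of 14.004, 13.92 and 13.89 in *mdx* and of 14.65, 14.32 and 14.67 in N1ICD-*mdx* muscles. Every N1ICD-*mdx* muscle lay above every *mdx* muscle, and the *mdx* muscles spread by only 1.08-fold. The log2 ratios were 0.65, 0.40 and 0.78, with a mean of 0.61 (standard error 0.11), a 1.52-fold difference (unadjusted p = 0.00443, adjusted p = 0.703). Its dimmer second probe, for another transcript, was also above 0 on the 3 arrays, at 0.24, 0.32 and 0.68, with a mean of 0.41 (standard error 0.12). The first probe lay just above the 1.5-fold threshold and the second below it.

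*Myl3*, the slow essential chain, had levels of 9.94, 10.69 and 9.53 in *mdx* and of 10.42, 10.41 and 11.23 in N1ICD-*mdx* muscles. The highest was N1ICD-*mdx* replicate 3 and the second highest *mdx* replicate 2, so the groups overlapped. The log2 ratios were 0.47, -0.28 and 1.70, and the mean of 0.63 (standard error 0.40), a 1.55-fold difference, did not pass (unadjusted p = 0.186, adjusted p = 0.706). *Myl3* thus had a larger mean ratio than *Mybpc1* with a standard error over 3 times as wide. Without replicate 2 its mean was 1.09 (unadjusted p = 0.00850), past both thresholds, and without replicate 3 it was 0.10.

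*Myl2*, the slow regulatory chain, gave a dim spot, with raw median signals of 286, 76 and 117 in *mdx* and 59, 47 and 177 in N1ICD-*mdx* muscles over local backgrounds of 41 to 47.5 in green and 17 to 18 in red. Its levels were 7.93, 6.55 and 6.83 in *mdx* and 6.70, 6.70 and 7.88 in N1ICD-*mdx* muscles. One muscle of each group was high, *mdx* replicate 1 and N1ICD-*mdx* replicate 3, and the log2 ratios of -1.23, 0.15 and 1.05 averaged to -0.01 (standard error 0.46, unadjusted p = 0.983). The genes most like *Myl2* over the 6 muscles were *Capn10* (r = 0.986), *Crtc1* (0.980), *Frzb* (0.979) and *AA388235* (0.973).

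Other genes of slow fibers were set beside these, from a list added after the values had been seen. Of 8, all measured, 5 had a mean ratio above 0 and 3 below, none was called, and the median was 0.10 against -0.003 over all genes. *Myh7*, the slow myosin heavy chain, had levels of 7.70, 6.19 and 6.56 in *mdx* and of 6.94, 7.001 and 7.07 in N1ICD-*mdx* muscles, so it was high in *mdx* replicate 1 as *Myl2* was but not in N1ICD-*mdx* replicate 3. The troponins of slow fibers gave log2 ratios of 0.07, 0.70 and -0.78 (*Tnni1*), -0.43, 0.74 and -0.26 (*Tnnt1*) and -0.86, 0.29 and -0.26 (*Tnnc1*). *Myoz2*, a Z-disc protein of slow fibers, had 0.94, -0.19 and 0.89. *Atp2a2* had 0.53, -0.00091 and 0.37, *Casq2* 0.51, -0.45 and 0.75, and *Tpm3* 0.36, -1.38 and 0.17. On each array, *Myoz2*, *Atp2a2*, *Casq2* and *Tpm3* had the sign of *Myl3*, with *Atp2a2* near 0 on array 2. *Tpm3* stood at 13.41 in *mdx* replicate 2, the muscle with the highest macrophage markers, against 12.03 to 12.56 in the other muscles. The part of other cell types in its ratio was not tested. *Tnnt1* and *Tnnc1* had the opposite sign on each array, and *Myh7* and *Tnni1* followed neither pattern.

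Within each array, the slow isoform was compared with its fast counterpart by the difference of their log2 ratios, so no level was compared between probes. Ratios over all genes differed with brightness, as given below, and *Myl1* and *Mybpc2* were brighter than the genes set against them. The part of brightness in these differences was not tested. For the essential chains, *Myl3* minus *Myl1* was 0.04, -0.24 and 1.82, with a mean of 0.54 (SD 1.12, n = 3). For the regulatory chains, *Myl2* minus *Mylpf* was -1.03, 0.22 and 1.23, with a mean of 0.14 (SD 1.13, n = 3). For the C proteins, *Mybpc1* minus *Mybpc2* was 0.68, -0.29 and 1.00, with a mean of 0.46 (SD 0.67, n = 3). Each of these 3 pairs was above 0 on 2 of 3 arrays, and each mean was smaller than its SD. The essential and C protein pairs were below 0 on array 2 and the regulatory pair on array 1, and on array 3 the slow isoform had the higher ratio in all 3 pairs. The median ratio of the 3 slow genes was 0.47, 0.15 and 1.05 on the arrays. It was the ratio of *Myl3* on array 1 and of the dim *Myl2* on arrays 2 and 3. The median ratio of the 3 fast genes was -0.03, -0.03 and -0.18. *Mybph* and *Myl4*, grouped here as immature isoforms, were set against the fast ones in the same way. *Mybph* minus *Mybpc2* was -0.84, -1.25 and -0.40, with a mean of -0.83 (SD 0.43, n = 3), below 0 on every array. *Myl4* minus *Myl1* was 0.43, -0.10 and -0.41, with a mean of -0.02 (SD 0.43, n = 3).

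The heavy chains that these light chains bind were read the same way. Of 4 fast heavy chains 3 were measured, all above 0, with a median of 1.102, while 49.1% of all genes were above 0. *Myh1* and *Myh4* had mean levels of at least 15, a range where 92.4% of genes were above 0. *Myh1*, the IIx heavy chain, had log2 ratios of 1.08, 1.02 and 1.59 with a mean of 1.23 (standard error 0.15, unadjusted p = 0.000850, adjusted p = 0.703). *Myh2*, the IIa chain, gave 2.20, -0.35 and 1.46, and *Myh4*, the IIb chain, 0.06, 0.96 and -0.23. The ratios of *Myh4* were highest on array 2, as were those of *Mybpc2* and *Mylk2*, and those of *Myh2* were below 0 on array 2, as were those of *Myl3*. Among 7 further fast fiber genes, also listed after the values had been seen, 6 were above 0 with a median of 0.35, and the thin filament troponins *Tnni2* (0.73, standard error 0.12) and *Tnnc2* (0.64, standard error 0.09) were called higher. Most of the 7, *Tnni2* and *Tnnc2* among them, had a mean level of at least 15. At such levels the median over all genes was 0.36, with 92.4% above 0, and *Myh4*, with a mean of 0.27, was below that median. *Casq1*, the fast calcium store protein, was at -0.51 (standard error 0.10), short of the 1.5-fold threshold.

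Ratios over all genes differed with brightness. The median log2 ratio was 0.36 among the 118 genes with a mean level of at least 15, of which 92.4% were above 0, and 0.15 among the 150 genes from 14 to 15, against 0.02 among the 704 genes from 12 to 14. *Myl1* (0.09) and *Mybpc2* (0.14) lie in the brightest range and were below its median, and *Mybpc1* (0.61) lies in the next and was above its median. On the scanner's processed signals the medians of the same bright genes were 0.09 and 0.02, and *Mybpc1* was at 0.50. The part of brightness in the ratios was not tested.

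**Figure D3:**
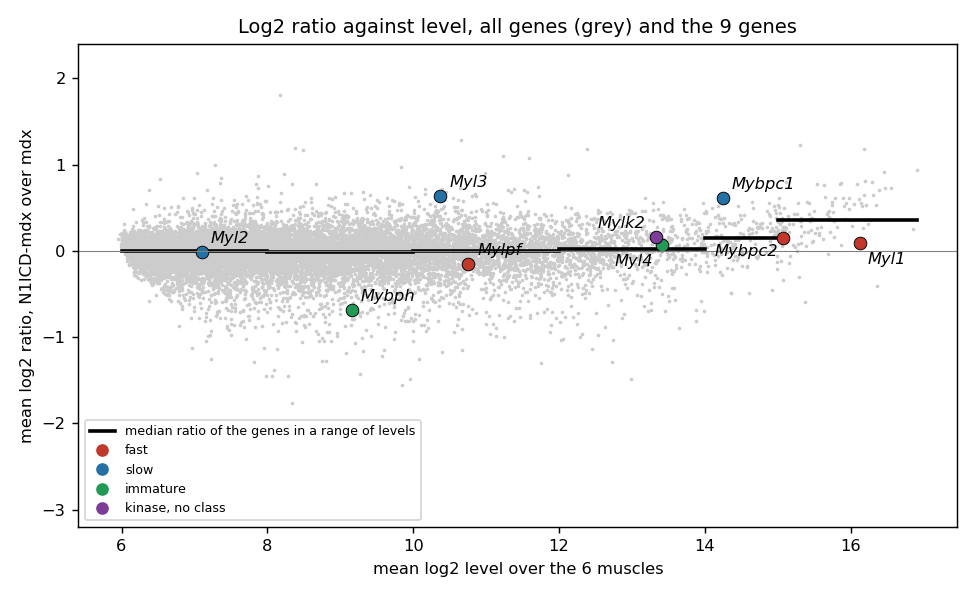
Mean log2 ratio of N1ICD-mdx over mdx (y axis) against the mean log2 level over the 6 muscles (x axis) for all 13705 genes in grey, with the 9 genes in color and the median ratio within ranges of level as black lines. The line rises from 0.02 to 0.15 and 0.36 in the 3 brightest ranges, with *Mybpc1* above and *Myl1* below it.

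The genes grouped here as immature, *Mybph* and *Myl4*, varied more within a genotype than between genotypes. Each array held 1 muscle of each genotype, so differences between muscles and between arrays cannot be told apart in that spread. *Mybph*, which encodes myosin-binding protein H, had levels of 10.35, 8.76 and 9.40 in *mdx* and of 9.48, 8.19 and 8.78 in N1ICD-*mdx* muscles. The muscles of replicate 1 were highest and those of replicate 2 lowest in both groups, a spread of 3.01-fold among *mdx* and 2.43-fold among N1ICD-*mdx* muscles, and the groups overlapped. On every array the N1ICD-*mdx* muscle was the lower, with log2 ratios of -0.87, -0.56 and -0.62 and a mean of -0.69 (standard error 0.10), a ratio of 0.622 (unadjusted p = 0.00211, adjusted p = 0.703). When the 6 muscles were fitted as unpaired groups the unadjusted p was 0.183 in limma, so the call rested on comparing the muscles that shared an array. The genes most like *Mybph* over the 6 muscles were *Sorcs2* (r = 0.981), *Hspb11* (0.980), *Rell2* (0.976) and *Nkiras2* (0.970).

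*Myl4*, the embryonic essential chain, had levels of 13.83, 12.60 and 13.70 in *mdx* and of 14.69, 12.47 and 13.18 in N1ICD-*mdx* muscles. Replicate 1 was highest and replicate 2 lowest in both groups, as for *Mybph*, and the N1ICD-*mdx* muscles spread by 4.67-fold. The log2 ratios of 0.87, -0.13 and -0.52 had a mean of 0.07 (standard error 0.29, unadjusted p = 0.821), so *Myl4* was not lower with *Mybph* on array 1. Its SD within groups, 0.934, was exceeded by 0.445% of all genes. The same SD was 0.725 for *Mybph* (exceeded by 1.31%), 0.707 for *Myl2* (1.42%), 0.533 for *Myl3* (3.50%), 0.208 for *Myl1* (33.0%), 0.200 for *Mylpf* (35.1%) and 0.146 for *Mybpc1* (54.8%).

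The spread between muscles took 2 forms in these genes. For *Mybph* it was shared by the muscles of an array, and the SD of its log2 ratios was exceeded by 57.7% of genes. For *Myl2* and *Myl3* it lay within arrays, and the SD of their ratios was exceeded by 1.08% and 1.93% of genes.

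Genes of regenerating fibers were read beside these. Of a list of 15, 14 were measured, 6 with a mean ratio above 0 and 8 below, with a median of -0.17. Called lower were *Myh3*, the embryonic heavy chain, *Myog*, the myogenic factor of differentiating cells, and *Mymx*, a membrane protein of myoblast fusion, and called higher was *Myh8*, the perinatal heavy chain. *Myh3* had levels of 12.19, 8.61 and 9.27 in *mdx* and of 11.16, 8.19 and 8.52 in N1ICD-*mdx* muscles, the order of muscles within each group that *Mybph* had, and log2 ratios of -1.02, -0.42 and -0.75. *Tnnt2*, the embryonic and cardiac troponin T, had -0.82, -0.58 and -0.24 (mean -0.55, standard error 0.14) with the same order of muscles in both groups. *Myog* gave -1.14, -1.41 and -0.27, while *Myh8* gave 0.54, 1.33 and 0.26. The *Myh8* values are those of the brighter of 2 kept probes. Its levels of 15.63 to 16.96 lie in the brightest range, where the median ratio over all genes was 0.36. Among *mdx* muscles this probe was highest in replicate 3 and lowest in replicate 2, as *Myh4* was, while *Myh3* was highest in replicate 1. On this probe the direction is opposite to that in the paper, which reports lower *Myh8* in N1ICD-*mdx* muscles. The ratios of the other kept probe are not given here, so the difference from the paper is limited to 1 probe. The part of the number of regenerating fibers in the ratio of *Mybph* was not tested.

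*Actc1*, the cardiac actin of immature skeletal fibers, was picked after its values had been seen because its log2 ratios were close to those of *Myl4*, so their likeness is a description of that choice. Its levels were 13.34, 12.41 and 13.65 in *mdx* and 14.46, 12.44 and 13.06 in N1ICD-*mdx* muscles, and its log2 ratios were 1.12, 0.03 and -0.59. Highest in both genes was N1ICD-*mdx* replicate 1, and the muscles of replicate 2 were the lowest.

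**Figure D4:**
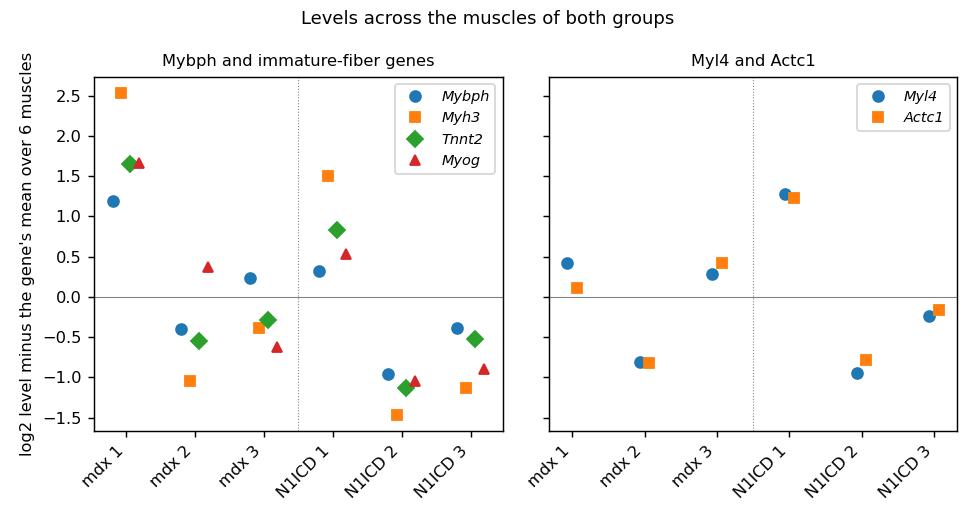
Log2 level minus the mean of the gene over the 6 muscles (y axis) in each muscle (x axis, mdx left and N1ICD-mdx right of the dotted line) for *Mybph*, *Myh3*, *Tnnt2* and *Myog* (left panel) and for *Myl4* and *Actc1* (right panel). In the left panel the muscles of replicate 1 lie highest in each group, and in the right panel the 2 genes nearly coincide, with the muscles of replicate 2 lowest.

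Of 4 further lists of genes around the thick filament, none held a gene called in either direction. Of 7 other myosin light chains 6 were measured, 4 above and 2 below 0, with a median of 0.03. Among them *Myl12a*, a nonmuscle regulatory chain, was at -0.23 (standard error 0.15) and *Myl9*, the smooth muscle regulatory chain, at 0.14 (standard error 0.09). The binding proteins *Mybpc3*, the cardiac C protein, and *Mybphl* were above background on at most 2 and 1 of 3 arrays and were not kept. Of 11 light chain kinase, phosphatase and calmodulin genes 9 were measured, 4 above and 5 below 0, and *Ppp1cb*, the catalytic subunit of myosin phosphatase, had the smallest p (0.36, standard error 0.12, unadjusted p = 0.0376). All 9 listed thick filament and M-band genes were measured, 5 above and 4 below 0 with a median of 0.11, with *Ttn*, the titin ruler of the sarcomere, at 0.26 (standard error 0.14). All 7 genes of myosin folding and assembly were measured, 5 above and 2 below 0, and the myosin chaperone *Unc45b* was at 0.35 (standard error 0.28), again high on array 2 alone (-0.13, 1.14 and 0.04).

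Of 18 regulators of fiber type 17 were measured, 14 above and 3 below 0, with a median of 0.11, while 49.1% of all genes were above 0. The 4 with an unadjusted p under 0.05 were *Eya1* (0.41, standard error 0.10) and *Six4* (0.40, standard error 0.10), partners that drive fast fiber genes, *Tead1* (0.50, standard error 0.13), a factor that binds MCAT motifs, and its cofactor *Vgll2* (0.44, standard error 0.12). None of the 17 reached 1.5-fold, and none passed the adjusted threshold.

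**Figure D5:**
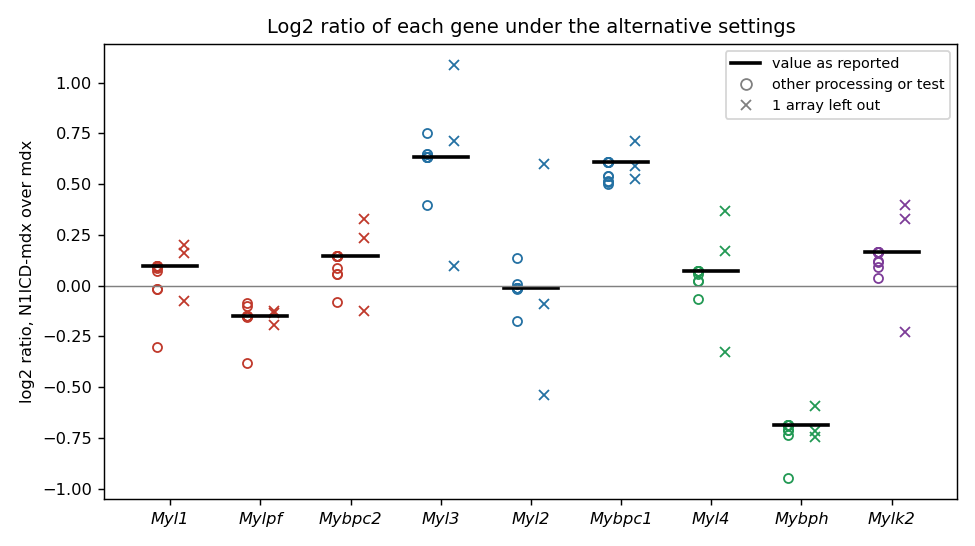
Log2 ratio of N1ICD-mdx over mdx (y axis) of each gene (x axis) as reported (black line), under other processing or tests (circles) and with 1 array left out (crosses). *Mybpc1* stayed between 0.50 and 0.71 and *Mybph* between -0.95 and -0.59, and *Myl1*, *Mybpc2*, *Myl2*, *Myl4* and *Mylk2* took both signs.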

How the data were processed

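The authors hybridized 6 TA muscle RNAs to 3 arrays and read the spots with Agilent Feature Extraction 11.5 (11.5.1.1 per the file headers). The deposited intensity values are median pixel signals and local backgrounds per spot and channel, not normalized, beside the software's processed signals, which are background-subtracted and dye-normalized. Other deposited columns are flags for outlier, saturated and above-background spots. Per the labels, the replicates were separate muscles, and the 3 arrays lay on 1 slide with 1 scan.

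Signals were corrected by normexp (offset 50) and loess within arrays, with Aquantile for channel levels, in limma 3.58.1 under R 4.3.3. Of 55681 probes, 28026 were named through RefSeq accessions, and 17814 of these were kept, being well above background throughout 1 channel or both. A gene was read from its brightest kept probe, and 3436 genes had several. The 3 log2 ratios were fitted with an intercept and moderated variances. Calls used 1.5-fold and an unadjusted p under 0.05, the thresholds of the methods. Median signals were 47.5 to 50.5 in green and 22.5 to 25 in red, and precision is limited by the number of arrays. On simulated data the fit was tested with known changes.

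The members and lists were chosen with earlier results of these data known, and the lists of slow and fast fiber genes after seeing the values used here. Named genes were all members, up to 4 of the smallest p in each list, and the 4 most correlated with *Mylpf*, *Myl2* and *Mybph*. Also named, outside this rule, were *Tnni1*, *Tnnt1* and *Tpm3* of the slow fiber list. So were *Mymx*, *Actc1*, Notch pathway genes and listed genes that were not kept. Sequences come from RefSeq, GRCm38.p6, and the only coordinates given are those of its promoter windows. Protein comparison was not run. Alternatives were no background correction, an offset of 10, processed signals, median centring, no dim-probe filter or one on both channels, probe means, trend and robust variances, no replicate block, the t-test of the methods, and leaving out each replicate.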

Additional observations from a re-analysis of the deposited data

How the results depend on the processing

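The ratios of *Mybpc1* (0.50 to 0.71), *Mybph* (-0.95 to -0.59), *Myl3* (0.10 to 1.09) and *Mylpf* (-0.38 to -0.09) kept their sign in every alternative, of which the changes of test and of probe filter leave these ratios as they are. The *Mybpc1* call was lost, each time because the ratio came under 1.5-fold while its unadjusted p in limma stayed under 0.05, with no background correction (0.54), an offset of 10 (0.54), processed signals (0.50), median centring (0.52) and the mean over probes (0.51), and also without replicate 3 (0.52). In the first 5 of these, 0 members were called higher. Leaving out a replicate gave 0 to 2 members called higher, with 0 without replicate 3 and 2 without replicate 2, where *Myl3* joined. Median centring moved the median of all genes to -0.18 and the share of genes above 0 from 49.1% to 17.8%, and *Mybpc1* at 0.52 and *Mybph* lay on either side of that median. The *Mybph* call was lost without the replicate block (unadjusted p in limma = 0.183) and in the t-test of the methods, with 0 members then called lower. The replicate numbers did not pair the muscles beyond the shared array: the deviations of same-numbered muscles from their group means correlated at -0.02, -0.29 and 0.34. Without the block, 66 genes were called higher and 58 lower, and 1 gene passed an adjusted p under 0.05, against 3 without replicate 2.

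Signs turned for *Myl1* (0.09) with no background correction (-0.018), an offset of 10 (-0.015) and processed signals (-0.30), for *Mybpc2* (0.14) with processed signals (-0.082), for *Myl2* (-0.01) with an offset of 10 (0.0061) and processed signals (0.14), and for *Myl4* (0.07) with median centring (-0.067). When a replicate was left out the values ran from -0.074 (without replicate 1) to 0.20 for *Myl1*, from -0.13 (without replicate 2) to 0.33 for *Mybpc2*, from -0.54 to 0.60 (without replicate 1) for *Myl2*, from -0.33 (without replicate 1) to 0.37 for *Myl4* and from -0.23 (without replicate 2) to 0.40 for *Mylk2*. The cause was not tested. For the fast genes, the median of their mean ratios was 0.09, against medians of -0.03, -0.03 and -0.18 on the single arrays. It became -0.018 with no background correction, -0.015 with an offset of 10 and -0.087 with processed signals. When a replicate was left out it ran from -0.13 to 0.20. The same median for the slow genes, 0.61, ran from 0.099 to 0.71, lowest without replicate 3. That of the 2 immature genes, the midpoint of *Mybph* (-0.69) and *Myl4* (0.07), stayed between -0.51 and -0.18, though *Myl4* alone took both signs.

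Over all genes, 65 higher and 66 lower calls became 110 and 112 with an offset of 10, 271 and 173 with processed signals, 30 and 391 with median centring, 59 and 40 with no filter, 52 and 15 in the t-test of the methods, and 94 to 121 and 73 to 110 when a replicate was left out.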
